A study of Mus musculus with 15 samples.

Results

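The genes of glycosylphosphatidylinositol (GPI) anchor synthesis, attachment and remodelling were followed across *Phf6*-deleted and control foetal mouse cortex and cultured cortical neurons. The set comprised 30 genes of the 23132 retained. *Pgap1* was selected on its higher RNA level in the *Phf6*-deleted samples of both tissues, so its genotype values are given as a description with no test. The other 29 genes were chosen by their function in the same pathway, with earlier results of these data known.

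A GPI anchor is a glycolipid that holds certain proteins on the outer face of the plasma membrane. It is built stepwise in the endoplasmic reticulum on phosphatidylinositol by adding glucosamine, mannose and ethanolamine phosphate. A transamidase then joins it to the carboxyl end of the protein, and remodelling enzymes trim it on the way to the cell surface. In the developing brain, contactins, glypicans, ephrin-A ligands and GDNF family receptors are among the proteins carried in this way.

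RNA sequencing was carried out on 15 libraries of male C57BL/6 foetuses, and the deposited counts give the number of reads per gene. The cortices were taken at E15.5 (E, embryonic day) from 3 Phf6+/Y foetuses and 5 Phf6–/Y foetuses of litters 1 to 3. Phf6–/Y foetuses carry a germline deletion, and litters 1 and 2 each gave 2 of them beside 1 control. The neurons were dissociated at E16.5, cultured, and came from 3 Phf6+/Y;Nes-creTg/+ foetuses and 4 Phf6lox/Y;Nes-creTg/+ foetuses of litters 4 to 7. *Nes-cre* expresses Cre recombinase in the nervous system, controls of the neurons carry it as well, and litter 7 held no control. Below, Phf6+/Y and Phf6+/Y;Nes-creTg/+ samples are called controls and Phf6–/Y and Phf6lox/Y;Nes-creTg/+ samples deleted. Levels within a gene are in CPM, counts scaled to a common library size over all 15 libraries, and levels between genes are in RPKM, the same divided by exon length.

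Library totals lay between 16858007 and 31157700 reads. Reads on *Phf6* itself lay between 149 and 191 CPM in control cortices and between 42.4 and 55.2 CPM in deleted cortices. In the neurons they lay between 228 and 259 CPM in controls and between 59.9 and 85.8 CPM in deleted cultures, so no library went against its label. The deletion removes only some exons of *Phf6*, and the counts are per gene, so they include reads on the exons that remain. The authors reported that reads on the removed exons were absent in both tissues. All 30 genes passed the filter on low counts in every fit. The deepest was *Pgap1*, with 3348 to 7119 reads per library. The shallowest were *Mppe1*, which held the lowest single count, with 23 to 101, and *Pigz*, with 31 to 55.

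*Pgap1* (Entrez gene 241062, chromosome 1 of GRCm38, 54473000 to 54557684, minus strand) encodes the deacylase that removes the acyl chain from the inositol of a newly attached anchor. The control cortices had 137, 149 and 153 CPM and the deleted cortices had 163, 197, 207, 192 and 222 CPM. Control neurons had 199, 157 and 194 CPM and deleted neurons had 213, 262, 213 and 228 CPM. The groups did not overlap in either tissue. The log2 fold change was 0.38 (standard error, SE, 0.07) in the cortex and 0.36 (SE 0.06) in the neurons. Within litters, deleted against control differed by 0.43, 0.44 and 0.25 on the log2 scale in litters 1, 2 and 3 and by 0.40, 0.44 and 0.24 in litters 4, 5 and 6. In RPKM, *Pgap1* was the gene with rank 10 of the 30 in control cortex, at 13.8 ± 0.787 (SD, n = 3), and rank 6 in deleted cortex, at 18.5 ± 2.06 (SD, n = 5). It held rank 6 in control neurons, at 17.3 ± 2.15 (SD, n = 3), and rank 5 in deleted neurons, at 21.7 ± 2.18 (SD, n = 4).

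**Figure D1:**
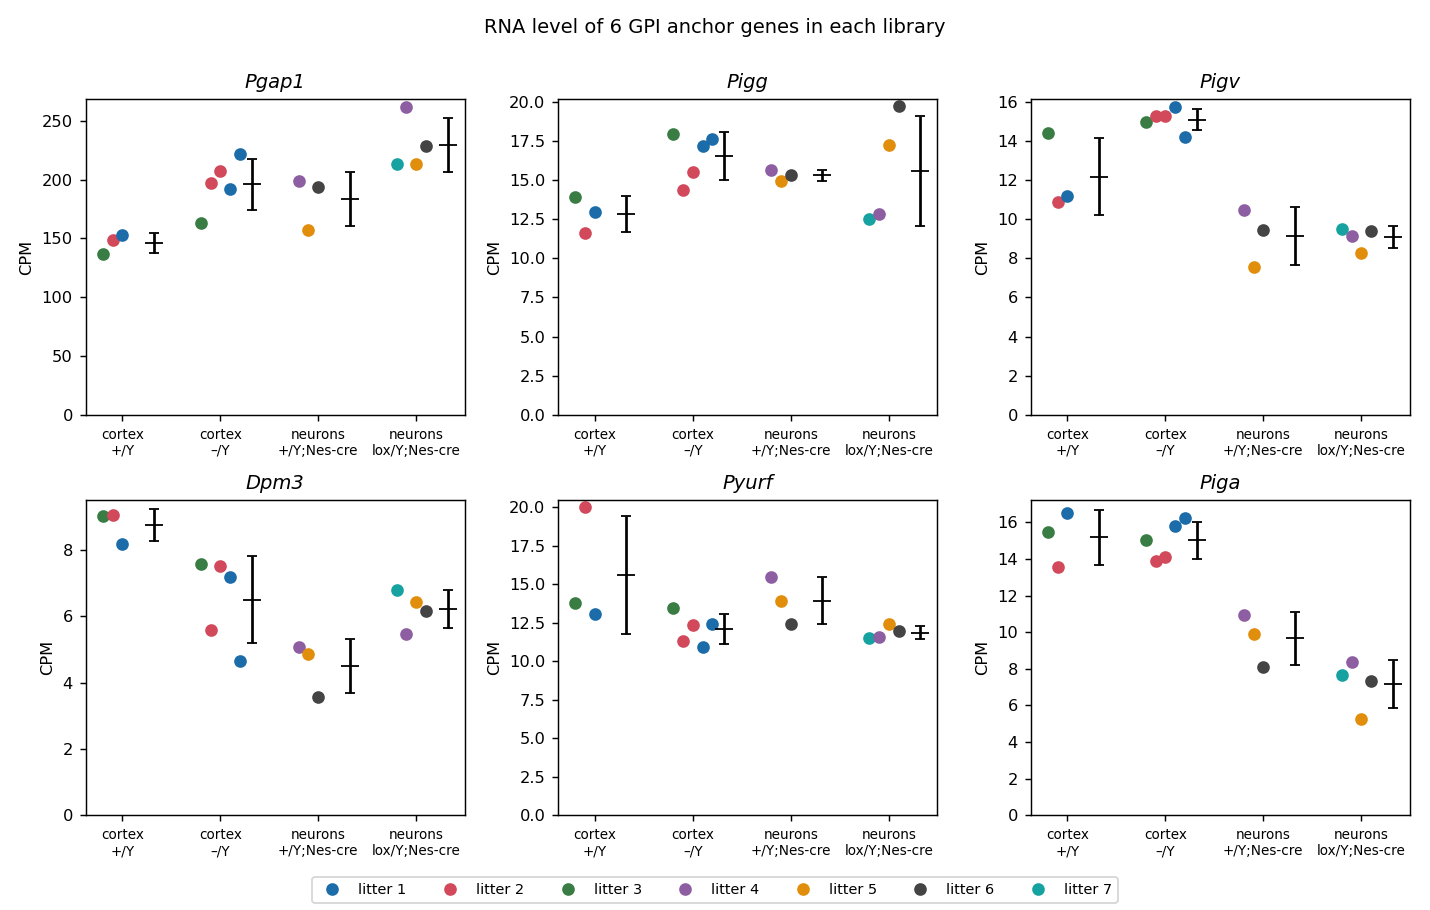
RNA level in CPM (vertical axis) of 6 GPI anchor genes in the 4 groups, 1 point per library coloured by litter, with the mean and SD in black. *Pgap1* was higher in every deleted library than in every control of its tissue, *Pigg* was so in the cortex alone, *Pigv* in 4 of the 5 deleted cortices, and *Dpm3* lay below its controls in the cortex and above them in the neurons.

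The question was whether the other genes of the pathway moved with *Pgap1*. None of the 29 reached a false discovery rate (FDR) below 0.05 in either tissue. The test was edgeR's quasi-likelihood F test with a litter term, and p-values were adjusted over all genes tested by the Benjamini-Hochberg method. In the cortex, 0 of 29 were higher and 0 lower, against 0.319% and 0.0678% of all 14750 genes tested. In the neurons, 0 of 29 were higher and 0 lower, against 0.194% and 0.0791% of all 13909 genes tested. With so few calls among all genes, a count of 0 in 29 does not set the pathway apart from the rest of the genes.

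At an unadjusted p below 0.05 from edgeR's test, 4 of the 29 were higher and 2 lower in deleted cortex, where 5.69% of all genes were higher and 4.77% lower. In deleted neurons 0 were higher and 1 was lower, against 5.87% and 4.46% of all genes. The median log2 fold change of the 29 was 0.04 in the cortex and -0.01 in the neurons, and that of all genes was -0.002 and 0.001. A positive value was found for 17 of the 29 in the cortex and for 14 in the neurons. Of the 29, 8 were positive in both tissues, 6 negative in both and 15 of opposite sign. An estimate above that of *Pgap1* was found only for *Mppe1* in the cortex, at 0.42 (SE 0.27), and for *Dpm3* in the neurons, at 0.42 (SE 0.21). Because *Pgap1* was selected on its high value, few larger estimates would be found in any case, and this does not set it apart. The 95% interval reached the *Pgap1* estimate for 10 of the 29 genes in each tissue and lay wholly below it for 19. That estimate was selected as well, and its own interval ran from 0.23 to 0.53 in the cortex and from 0.23 to 0.48 in the neurons. These counts therefore do not decide whether the other genes differ from *Pgap1*.

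**Figure D2:**
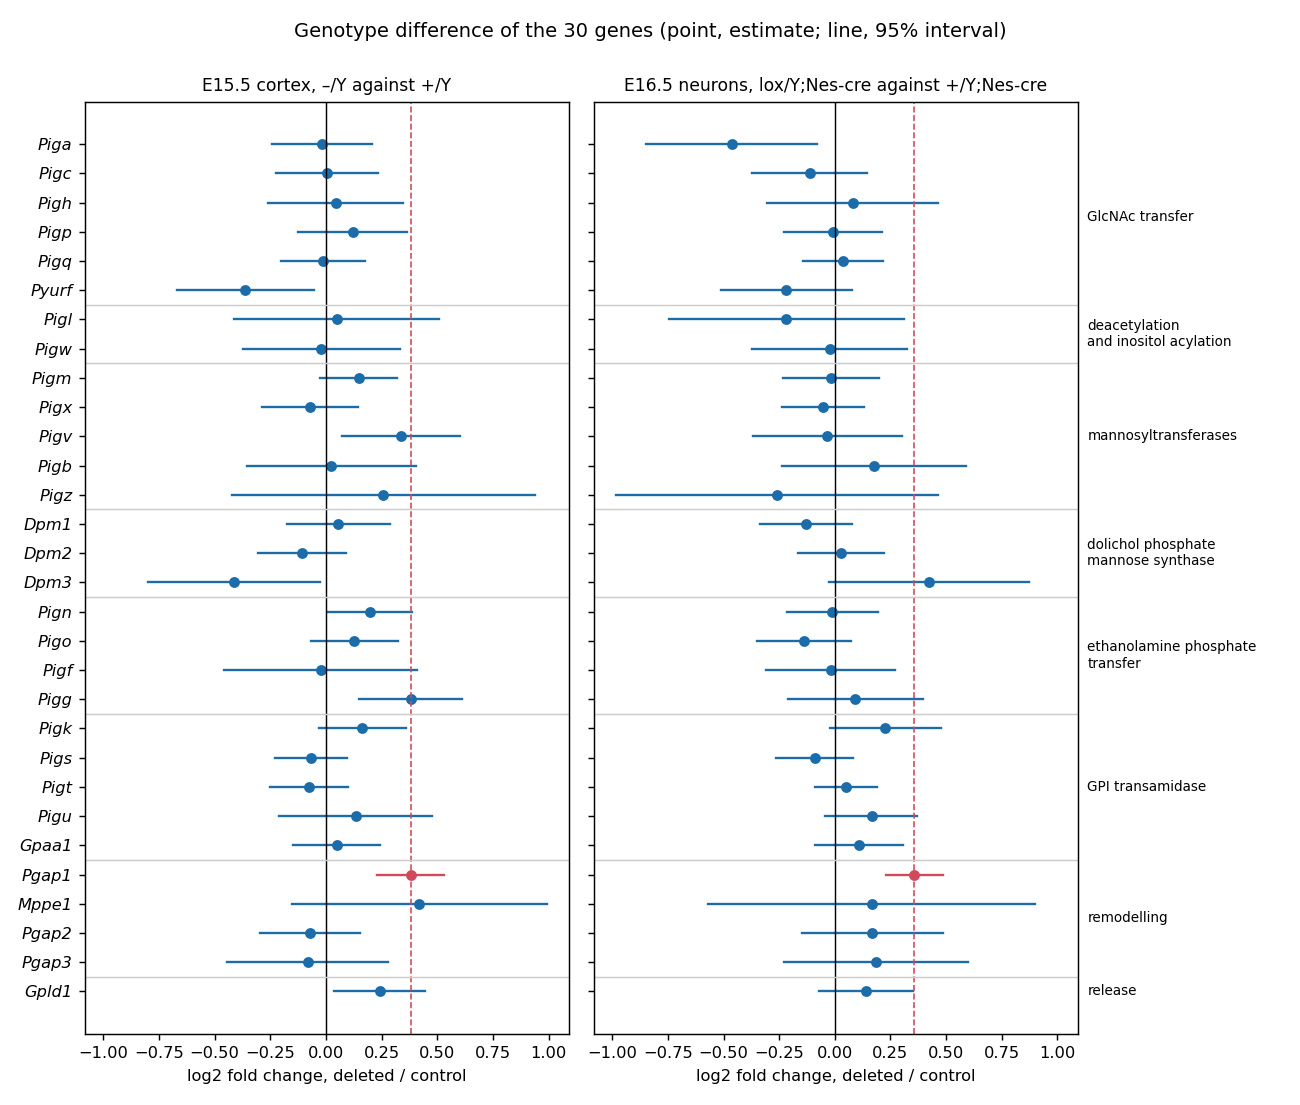
Log2 fold change of deleted against control (horizontal axis) for the 30 genes (rows, in pathway order) in E15.5 cortex (left) and E16.5 neurons (right). Points are estimates, lines are 95% intervals, *Pgap1*, on which the set was chosen, is red, and the dashed line marks its estimate, which was exceeded by *Mppe1* in the cortex and by *Dpm3* in the neurons.

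Without reference to a model, every deleted cortex lay above every control cortex for 2 of the 29 genes, *Pign* and *Pigg*, and below for 1, *Dpm3*. Among all genes this held for 2.47% and 2.55%. In the neurons the groups did not overlap for *Dpm3* and *Pigk*, which were above, and *Pigo*, which was below, where 3.61% and 3.62% of all genes were so. Taking litters instead, the mean of the deleted cortices was above the control in all 3 litters for 9 genes and below in all 3 for 4, against 15.8% and 16.3% of all genes. In the 3 neuron litters with both genotypes, 4 of the 29 were above in each and 7 below in each, against 16.0% and 15.7%.

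The enzyme that starts the pathway transfers N-acetylglucosamine to phosphatidylinositol and consists of *Piga*, its catalytic subunit, with *Pigc*, *Pigh*, *Pigp*, *Pigq* and the product of *Pigy*, which shares a transcript with *Pyurf*. *Pigq* was highest of the 6 per exon length in control cortex. It was at 49.1, 45.1 and 38.8 CPM in control cortices and at 42.7, 46.7, 41.6, 44.4 and 42.5 CPM in deleted cortices. In control neurons it was at 39.4, 41 and 36 CPM and in deleted neurons at 37.3, 40.6, 39.8 and 38.9 CPM. These ranges overlapped in both tissues.

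*Pyurf* (chromosome 6, 57684739 to 57692078) was at 13.8, 20 and 13.1 CPM in control cortices and at 13.4, 11.3, 12.4, 11 and 12.4 CPM in deleted cortices. The control of litter 2 was the highest library, and the groups overlapped. Its log2 fold change in the cortex was -0.36 (SE 0.14, unadjusted p = 0.0246, FDR = 0.378 from edgeR's test), and without the control of litter 2 it was -0.11. Control neurons had 15.48, 13.9 and 12.4 CPM and deleted neurons had 11.5, 11.6, 12.4 and 12 CPM. Deleted replicate 3 matched the lowest control to this rounding and the others were below every control, and the log2 fold change was -0.22 (SE 0.14, FDR = 0.633).

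*Piga* (chromosome X, 164419780 to 164433916) was at 15.49, 13.5 and 16.48 CPM in control cortices and at 15, 13.9, 14.1, 15.8 and 16.2 CPM in deleted cortices. These overlapped, with a log2 fold change of -0.02 (SE 0.11). Control neurons had 10.9, 9.92 and 8.11 CPM and deleted neurons had 7.64, 8.36, 5.28 and 7.35 CPM. Of the deleted cultures only replicate 2 exceeded the lowest control, and the 3 with a control of their own litter lay below it. The log2 fold change in the neurons was -0.46 (SE 0.18, unadjusted p = 0.0215, FDR = 0.37 from edgeR's test), and it was -0.28 without control replicate 2. *Pigp* was at 18.6, 18.9 and 19.7 CPM in control cortices and at 24.7, 20.7, 18.8, 17.5 and 21.4 CPM in deleted cortices. Control neurons had 31.2, 25.4 and 24.6 CPM of it and deleted neurons 24.8, 27.4, 28.1 and 25.2 CPM, so its genotypes overlapped in both tissues. For *Pigc*, *Pigh* and *Pigp* the log2 fold changes ranged from 0.004 to 0.12 in the cortex and from -0.11 to 0.08 in the neurons.

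The next steps are removal of the acetyl group by *Pigl* and acylation of the inositol by *Pigw*, the reaction that *Pgap1* later reverses. *Pigl* was at 6.69, 7.53 and 5.6 CPM in control cortices and at 7.56, 7.42, 5.08, 8.61 and 5.18 CPM in deleted cortices. It was at 4.88, 3.78 and 3.2 CPM in control neurons and at 3.65, 3.53, 2.99 and 3.6 CPM in deleted neurons. *Pigw* was at 5.38, 5.78 and 7.5 CPM in control cortices and at 6.18, 5.52, 5.85, 6.57 and 6.86 CPM in deleted cortices. Both genes overlapped between genotypes. In the neurons, *Pigw* was at 9.76, 7.84 and 10.4 CPM in controls and at 8.47, 9.83, 9.23 and 8.51 CPM in deleted cultures. The log2 fold change of *Pigw*, the enzyme that makes the substrate of *Pgap1*, was -0.02 in the cortex (SE 0.16) and -0.02 in the neurons (SE 0.16).

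Mannoses are added by *Pigm* with its partner *Pigx*, then *Pigv*, then *Pigb*, and a further side mannose by *Pigz*. *Pigv* (chromosome 4, 133659359 to 133673995) was at 14.4, 10.9 and 11.2 CPM in control cortices and at 15, 15.3, 15.3, 15.7 and 14.2 CPM in deleted cortices. The deleted cortices lay close together, and 4 of the 5 were above every control. Its log2 fold change was 0.34 (SE 0.12, unadjusted p = 0.0163, FDR = 0.331 from edgeR's test). In the neurons it was at 10.5, 7.57 and 9.43 CPM in controls and at 9.51, 9.13, 8.27 and 9.42 CPM in deleted cultures. There the groups overlapped throughout, with a log2 fold change of -0.03 (SE 0.16).

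*Pigx*, the most abundant of this group per exon length in control cortex, was at 28.5, 23.1 and 30.5 CPM in control cortices and at 27.9, 26.4, 24.9, 25.2 and 24.6 CPM in deleted cortices. It was at 38, 34.6 and 34.5 CPM in control neurons and at 36.3, 37.7, 32.5 and 33.1 CPM in deleted neurons. The genotypes overlapped in both tissues. *Pigm* had log2 fold changes of 0.15 in the cortex (SE 0.08) and -0.02 in the neurons (SE 0.10). *Pigz*, the lowest of all 30 genes per exon length in control cortex at 0.644 ± 0.138 RPKM (SD, n = 3), had wide intervals in both tissues.

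The mannose donor, dolichol phosphate mannose, is made by the catalytic subunit *Dpm1* with the membrane subunits *Dpm2* and *Dpm3*, and it also feeds other glycosylation pathways. *Dpm2* had the highest level per exon length of all 30 genes in each of the 4 groups, between 36.4 and 40.6 RPKM. It was at 35, 33 and 32.4 CPM in control cortices and at 29.1, 32.3, 33.3, 28.4 and 33.7 CPM in deleted cortices. Control neurons had 34.1, 35.8 and 32 CPM and deleted neurons had 36.2, 33.6, 34.5 and 35.6 CPM. The genotypes overlapped in both tissues.

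*Dpm3* (chromosome 3, 89257065 to 89267079) was at 9.01, 9.03 and 8.18 CPM in control cortices and at 7.56, 5.59, 7.5, 7.18 and 4.64 CPM in deleted cortices. Every deleted cortex was below every control. In the neurons it was at 5.06, 4.84 and 3.55 CPM in controls and at 6.8, 5.45, 6.43 and 6.15 CPM in deleted cultures. Here every deleted culture exceeded every control. In the cortex, *Dpm3* had a log2 fold change of -0.41 (SE 0.18, unadjusted p = 0.0388, FDR = 0.444 from edgeR's test) and in the neurons 0.42 (SE 0.21, unadjusted p = 0.0625, FDR = 0.512). The difference between these was 0.83 (SE 0.28, unadjusted p = 0.00869, FDR = 0.81), tested as a genotype-by-tissue interaction. With 1 library left out, the neuron value ranged from 0.25 (without deleted replicate 4) to 0.60 (without deleted replicate 2). *Dpm3* had 81 to 288 reads per library.

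Over the set, 1 of the 29 genes had a positive interaction at an unadjusted p below 0.05, *Dpm3*, and 1 a negative, *Piga* (-0.45, SE 0.20, unadjusted p = 0.034, FDR = 0.941 from edgeR's test). Of all 15001 genes tested, 2.27% were positive and 2.92% negative at this level. At an FDR below 0.05 there were 0 of 29 in each direction, against 0.00667% of all genes in each.

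Ethanolamine phosphate is added to the first mannose by *Pign*, to the second by *Pigg* and to the third by *Pigo*, the latter pair acting with *Pigf*. *Pigg* (chromosome 5, 108312813 to 108349359) was at 13.9, 11.6 and 13 CPM in control cortices and at 17.9, 14.3, 15.51, 17.2 and 17.6 CPM in deleted cortices. Every deleted cortex exceeded every control, and the log2 fold change of 0.38 equalled that of *Pgap1* to this rounding (SE 0.11, unadjusted p = 0.00333, FDR = 0.192 from edgeR's test). In control neurons it was at 15.7, 14.9 and 15.3 CPM, and in deleted neurons at 12.5, 12.8, 17.2 and 19.8 CPM. The deleted cultures lay on both sides of the controls, 2 below and 2 above, and the log2 fold change was 0.09 (SE 0.14).

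*Pign* (chromosome 1, 105518421 to 105663741) was at 28.2, 28.2 and 27.5 CPM in control cortices and at 36.4, 31.9, 31.5, 28.7 and 30.7 CPM in deleted cortices. All deleted cortices were above the controls, with a log2 fold change of 0.20 (SE 0.09, unadjusted p = 0.0424, FDR = 0.454 from edgeR's test). In the neurons it was at 31.4, 27.7 and 25.2 CPM in controls and at 25.9, 32.4, 25.8 and 25.5 CPM in deleted cultures. These overlapped, with a log2 fold change of -0.01 (SE 0.10). *Pigf*, highest in this group per exon length in control cortex, was at 9.32, 5.94 and 10.2 CPM in control cortices and at 6.97, 10.7, 7.97, 8.17 and 8.11 CPM in deleted cortices. It was at 11.3, 13.1 and 12 CPM in control neurons and at 13, 12.3, 12.2 and 11.2 CPM in deleted neurons. *Pigf* overlapped between genotypes in both tissues. *Pigo* had log2 fold changes of 0.13 in the cortex and -0.14 in the neurons (SEs 0.09 and 0.10).

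The GPI transamidase consists of the catalytic *Pigk* with *Pigs*, *Pigt*, *Pigu* and *Gpaa1*. *Pigt* was the most abundant of the 5 per exon length in control cortex, at 98.2, 85.7 and 86.7 CPM in control cortices and at 78.9, 92.8, 95.7, 85 and 77.3 CPM in deleted cortices. It was at 81.3, 87.3 and 77.7 CPM in control neurons and at 90.6, 83.2, 92.9 and 79.5 CPM in deleted neurons. Its genotypes overlapped in both tissues. *Pigk* was at 27, 23.8 and 24.6 CPM in control cortices and at 31.2, 29.4, 26, 26.6 and 25.8 CPM in deleted cortices. Its levels were 16.1, 15.8 and 16.4 CPM in control neurons and 18.1, 19.1, 20 and 17.6 CPM in deleted neurons. The deleted cultures were all above the controls, while the cortices overlapped. The log2 fold change of *Pigk* was 0.16 in the cortex (SE 0.09, FDR = 0.569) and 0.23 in the neurons (SE 0.12, FDR = 0.533 from edgeR's test). The other 4 subunits ranged from -0.08 to 0.13 in the cortex and from -0.09 to 0.17 in the neurons on the same scale.

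After attachment, *Pgap1* acts on the inositol and *Mppe1* removes the ethanolamine phosphate of the second mannose. *Pgap3* and *Pgap2* then exchange a fatty acid of the anchor in the Golgi apparatus. *Pgap2* was at 17.1, 17.1 and 19.1 CPM in control cortices and at 15.4, 17, 18.8, 16.6 and 18.4 CPM in deleted cortices. It was at 11.2, 12.7 and 10.1 CPM in control neurons and at 11.6, 11.7, 12.1 and 14.4 CPM in deleted neurons. Its genotypes overlapped in both tissues. The log2 fold changes of *Pgap2* and *Pgap3* were -0.07 and -0.08 in the cortex and 0.17 and 0.18 in the neurons, with standard errors from 0.10 to 0.19. *Mppe1* had log2 fold changes of 0.42 (cortex) and 0.17 (neurons) and standard errors of 0.27 and 0.34. None of the other 3 remodelling genes reached an unadjusted p below 0.05 in either tissue by edgeR's test.

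*Gpld1* (chromosome 13, 24937785 to 24991936) encodes a phospholipase D that cleaves the anchor and releases the protein. It was at 30.3, 26.8 and 27.6 CPM in control cortices and at 40.3, 30.1, 26.6, 32.7 and 35 CPM in deleted cortices. The lowest library was a deleted cortex, replicate 3, and the highest was a deleted cortex as well. The log2 fold change was 0.24 (SE 0.10, unadjusted p = 0.0236, FDR = 0.376 from edgeR's test). In the neurons it was at 28.6, 28.8 and 36.4 CPM in controls and at 28.5, 34.6, 34 and 34.3 CPM in deleted cultures, which overlapped. Of its annotated exon bases, 47.2% also belong to *Mrs2* on the opposite strand. The strand setting of the counting was not stated, so reads of the pair may not be fully separated.

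Other members shared exon bases too. On the opposite strand these were *Pigb* (35.1%, with *Ccpg1*), *Mppe1* (34.2%, *Gnal*), *Pigf* (31.6%, *Rhoq*), *Pigh* (28.7%, *Plekhh1*), *Pigq* (23.6%, a predicted gene) and *Pigp* (11.6%, *Ttc3*). On the same strand, *Dpm1*, *Pyurf*, *Pgap2* and *Pigp* shared 35.9%, 34.2%, 22.4% and 12.5% of their bases with less well characterised transcripts. Any further overlap of a member was 7.6% of its bases or less on either strand. *Pgap1*, *Pigv*, *Piga*, *Dpm3* and *Pign* shared none.

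Marker genes of other cell types were examined beside these values. The summed level of 7 radial glia and progenitor genes was 1660 to 1690 CPM in control and 1400 to 1620 CPM in deleted cortices, without overlap. A sum is weighted to its most abundant genes, and how often sums of other genes separate in this way was not examined. Taken singly, 5 of the 7 had a negative log2 fold change in the cortex and 2 a positive one. Their median was -0.067, and they ranged from -0.23 (*Vim*) to 0.027. At an unadjusted p below 0.05 from edgeR's test, 1 of the 7 was lower in deleted cortex. Of 7 neuronal genes 2 were lower there, and of 5 interneuron genes 2 were higher, against 4.77% and 5.69% of all genes. The sums of both these lists overlapped between genotypes. The summed level of 4 meningeal fibroblast genes spanned 10.1 to 201 CPM in control and 7.75 to 392 CPM in deleted cortices. That of 4 choroid plexus genes spanned 1.31 to 38.8 CPM and 1.09 to 35.1 CPM. In the neurons, radial glia genes spanned 462 to 676 CPM in control and 431 to 609 CPM in deleted cultures. The part of these in the values above was not tested. In bulk samples, fewer cells of a type and less RNA per cell cannot be told apart.

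The levels in neurons against cortex were not used to choose the genes and could be tested. *Pgap1* was higher in control neurons than in control cortices, by 0.32 on the log2 scale (SE 0.10, Benjamini-Hochberg FDR = 0.0133 from edgeR's test). Besides *Pgap1*, *Pigw*, *Pigf*, *Pigp*, *Pigx* and *Dpm1* were higher, and *Pigl*, *Piga*, *Pgap2*, *Pigk*, *Dpm3*, *Gpaa1*, *Pigs* and *Pigo* were lower. Thus 6 of the 30 genes were higher and 8 lower, against 24.7% and 26.4% of all 14320 genes tested. Between deleted neurons and deleted cortices, a comparison of other libraries, 6 were higher and 9 lower, against 28.0% and 31.1% of all 14416 genes. Some of these cortices were littermates, which the fit, without a litter term, took as independent, so its FDRs may be too low. In both comparisons 5 genes were higher, *Pgap1*, *Pigw*, *Pigf*, *Pigp* and *Pigx*. Another 7 were lower in both, *Pigl*, *Piga*, *Pgap2*, *Pigk*, *Gpaa1*, *Pigs* and *Pigo*. Of all genes tested in both, 21.7% were higher and 23.7% lower in both. The share of the 30 called lower in both was close to that of all genes and the share called higher was smaller, a difference that was not tested.

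Among the genes that were higher, *Pigw* had log2 fold changes of 0.59 in controls (SE 0.20, FDR = 0.028 from edgeR's test) and 0.54 in deleted samples (SE 0.13, FDR = 0.00322). Every neuron library was above every cortex library of its genotype. *Pigf* had 0.51 (SE 0.20, FDR = 0.0479) and 0.54 (SE 0.14, FDR = 0.0043), *Pigp* had 0.50 and 0.35, and *Pigx* had 0.38 and 0.43. *Pgap1* had 0.32 and 0.22, the latter with an FDR of 0.0499, and kept an FDR below 0.05 in 4 of 6 fits that left out 1 control library and in 3 of 9 that left out 1 deleted library. Of the control calls, those of *Pigw* and *Pigf* were kept in 2 of 6 such fits, of *Pigx* in 4 and of *Pigp* in 6, whereas in deleted samples each of these 4 genes kept its call in 9 of 9. Where the library left out was a cortex with a deleted littermate, its litter stayed in the fit. The enzymes so placed act at separate steps, namely *Pigp* in the initial transferase, *Pigw* in inositol acylation and *Pigx* in the addition of the first mannose.

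Among those that were lower, *Piga* had log2 fold changes of -0.65 in controls (SE 0.17, FDR = 0.00466 from edgeR's test) and -1.06 in deleted samples (SE 0.14, FDR = 2.82e-05). *Pigl* had -0.74 and -0.98, *Pgap2* had -0.65 and -0.47, and *Pigk* had -0.65 and -0.58. With 1 library left out, *Pigl* and *Pigo* kept their control calls in 2 of 6 fits, and *Piga*, *Pgap2*, *Pigk*, *Pigs* and *Gpaa1* in 6 of 6. Each of the 7 kept its call in 9 of 9 fits of the deleted samples. Of the 5 transamidase subunits, *Pigk*, *Pigs* and *Gpaa1* were lower in both comparisons, *Pigt* was called in neither, and *Pigu* was higher in the deleted samples (0.35, SE 0.10, FDR = 0.00836). The catalytic *Piga* and its partner *Pigp* thus differed between tissues in opposite directions. The control samples of this comparison are also those of the genotype comparisons.

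**Figure D3:**
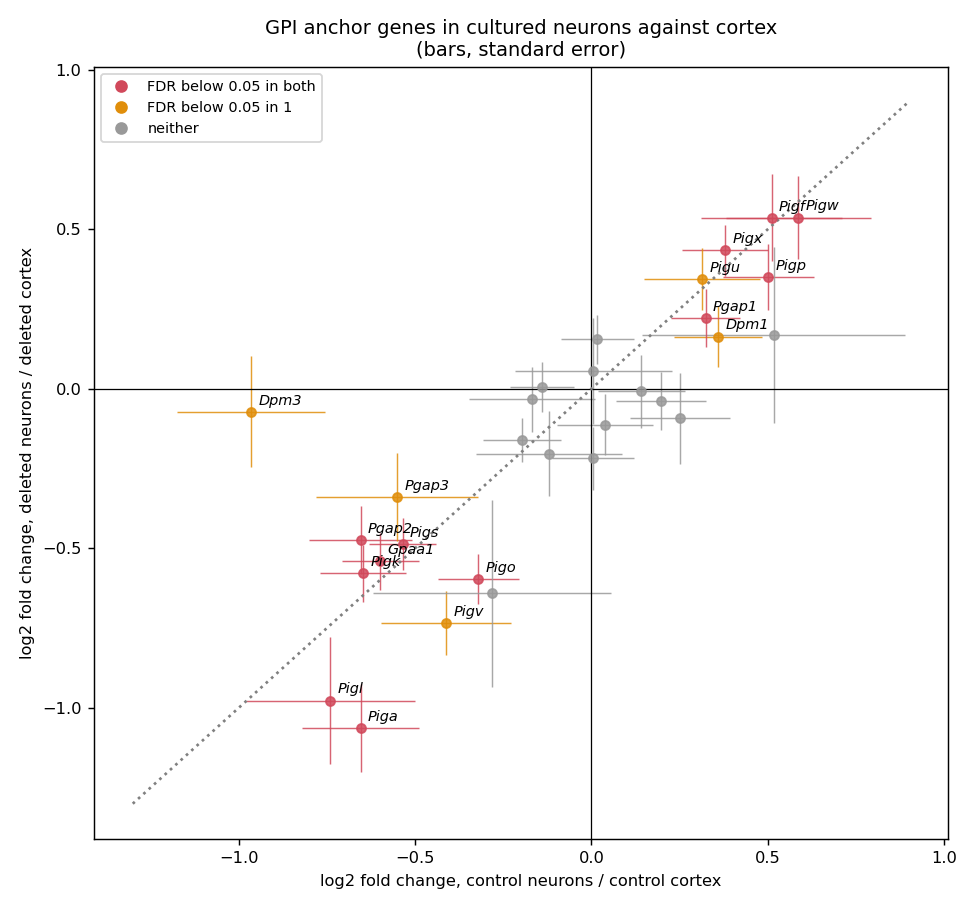
Log2 fold change of neurons against cortex in control samples (horizontal axis) and in deleted samples (vertical axis) for the 30 genes, with standard errors as bars and the dotted line marking equal values. Red points had an FDR below 0.05 in both comparisons, 5 on the higher side and 7 on the lower. *Dpm3* lay off the dotted line, at -0.96 in controls and -0.07 in deleted samples. That gap comes from the same libraries as its genotype-by-tissue interaction, which had an FDR of 0.81 by edgeR's test.

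Tissue, embryonic day, dissociation, culture and *Nes-cre* differed together between cortex and neurons and cannot be told apart. The summed level of 7 neuronal genes was 5230 to 5820 CPM in control cortices and 8210 to 9350 CPM in control neurons, and that of radial glia genes was 1660 to 1690 CPM and 462 to 676 CPM. That of 5 endothelial genes was 148 to 173 CPM and 3.7 to 4.21 CPM, with 1 of the 5 at 0 reads in every control neuron library. That of 5 interneuron genes was 554 to 706 CPM and 146 to 226 CPM. The part of cell composition in the differences of the GPI genes was not tested. With library totals in place of TMM scaling, the median of all genes moved from -0.03 to -0.17 in controls and from -0.03 to -0.19 in deleted samples. Then 1 of the 30 was higher and 12 lower in controls, and 3 were higher and 14 lower in deleted samples. Of all genes tested, 2459 were then higher and 5003 lower in controls, and 2640 were higher and 5986 lower in deleted samples. By that scaling the higher calls of *Pgap1*, *Pigw*, *Pigf*, *Pigx* and *Dpm1* in controls and of *Pgap1*, *Pigp* and *Pigu* in deleted samples were lost, with values still above 0, whereas the 7 genes lower in both were again called lower in both.

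**Figure D4:**
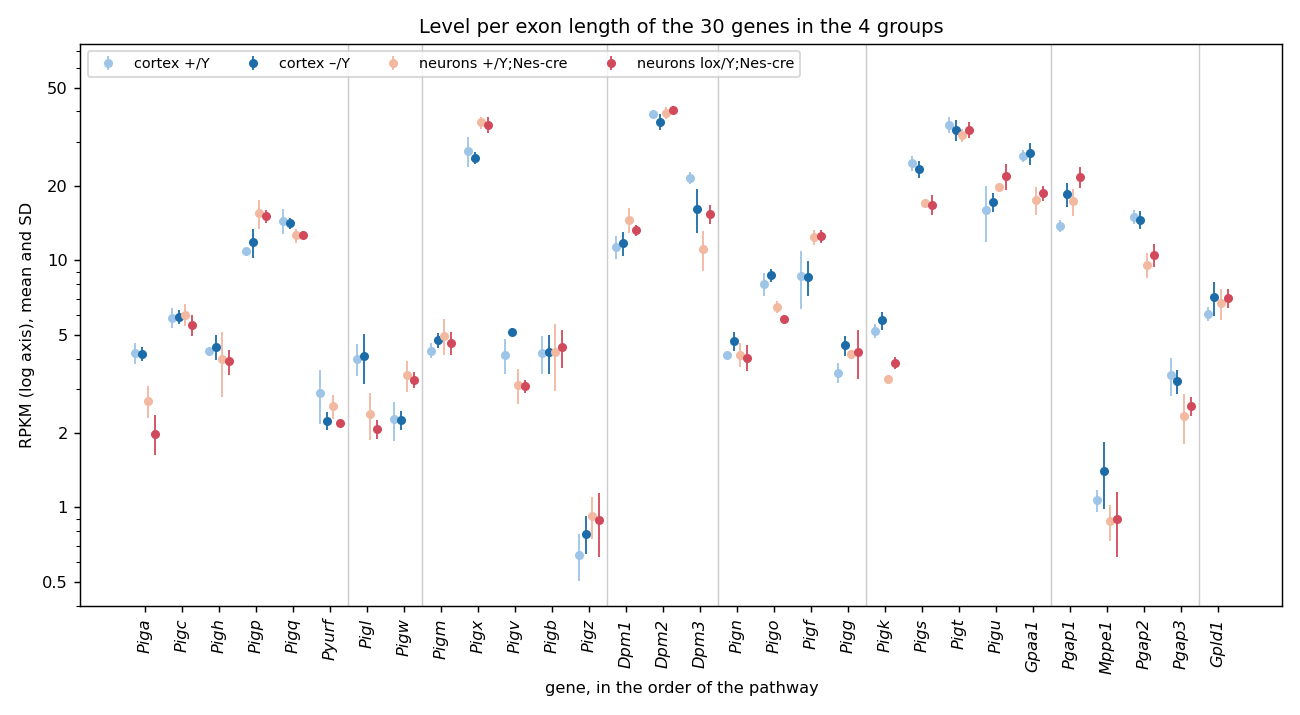
Level per exon length in RPKM (vertical log axis), mean and SD over libraries, of the 30 genes in pathway order in the 4 groups. *Dpm2* was highest and *Pigz* or *Mppe1* lowest in every group, and the shift between cortex (blue) and neurons (red) exceeded that between genotypes for *Piga*, *Pigk* and *Pigw*.

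Further genes of the pathway were counted, namely 12 that include *Pigyl*, *Pgap4*, *Arv1*, *Mpdu1*, the *Tmed* cargo receptors and the phosphodiesterases *Gdpd5* and *Gdpd2*. By edgeR's test, 0 of the 12 had an FDR below 0.05 in deleted cortex or deleted neurons and 0 had an unadjusted p below 0.05. Of all genes, 0.319% were higher and 0.0678% lower in the cortex at that FDR and 0.194% and 0.0791% in the neurons, and at that unadjusted p 5.69%, 4.77%, 5.87% and 4.46%, so that 0 of 12 is near what all genes give. The smallest p in the cortex was that of *Tmed10*, a receptor that carries GPI-anchored proteins out of the endoplasmic reticulum (log2 fold change 0.16, unadjusted p = 0.0648, FDR = 0.516). In the neurons it was that of *Gdpd2* (-0.79, unadjusted p = 0.0547, FDR = 0.496).

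Of the proteins that carry the anchor, 51 genes were listed and 49 were tested in the cortex and 48 in the neurons. In deleted cortex 2 were higher at an FDR below 0.05 and 0 lower, and in deleted neurons 0 were higher and 0 lower, with edgeR's test. The shares of all genes were 0.319% and 0.0678% in the cortex and 0.194% and 0.0791% in the neurons. *Efna5*, an ephrin ligand of Eph receptors, was at 15.6 to 21.2 CPM in control and 21.3 to 37.1 CPM in deleted cortices (log2 fold change 0.59, SE 0.11, FDR = 0.0393). *Gfra2*, a receptor for neurturin, was at 7.33 to 8.57 CPM in control and 10 to 16.9 CPM in deleted cortices (0.75, SE 0.14, FDR = 0.041). The groups did not overlap for either gene, where 2.47% of all genes had every deleted cortex above every control. Both genes are named because they were called in this comparison. In the neurons *Efna5* had 0.15 (SE 0.14, FDR = 0.786) and *Gfra2* had 0.08 (SE 0.13, FDR = 0.885). The smallest p there was that of the contactin *Cntn5*, at 3.92 to 4.56 CPM in control and 6.78 to 7.95 CPM in deleted neurons (0.83, SE 0.20, FDR = 0.105).

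The median log2 fold change of the anchored proteins was -0.01 in the cortex and 0.08 in the neurons, beside -0.002 and 0.001 for all genes. At an unadjusted p below 0.05, 9 were higher and 5 lower in the cortex, and 9 were higher and 2 lower in the neurons. Of all genes, 5.69% were higher and 4.77% lower in the cortex at this level, and 5.87% and 4.46% in the neurons.

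The genes whose lower coordinate on chromosome 1 lay within 500 kb of that of *Pgap1* were *Ccdc150*, *Gtf3c3* and *Ankrd44*. Strand was not taken into account, so genes whose transcription starts near that of *Pgap1* may be missing from this list. In the cortex 0 of the 3, and in the neurons 0 of the 2 that were tested there (*Gtf3c3* and *Ankrd44*), had an FDR below 0.05, where 0.319% of all genes were higher and 0.0678% lower in the cortex, and 0.194% and 0.0791% in the neurons. In the cortex their log2 fold changes lay between -0.29 and 0.12. *Ankrd44*, which encodes an ankyrin repeat protein, was at 44.6 to 54.7 CPM in control and at 55.9 to 62.3 CPM in deleted neurons (log2 fold change 0.30, SE 0.08, unadjusted p = 0.0017, FDR = 0.143 from edgeR's test). In the cortex it was at 40 to 44.4 CPM in control and 38 to 52.6 CPM in deleted samples, which overlapped.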

How the data were processed

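The authors aligned reads of stranded libraries to the mm10 build, counted them with featureCounts against its built-in gene annotation, and deposited the counts without normalization. Rows without a gene identifier (0.349% to 0.605% of counts), pseudogenes, ribosomal RNA genes and genes with predicted names were removed, and symbols and positions were taken from RefSeq of GRCm38. Exon overlaps came from the GENCODE annotation of the same build. Genes were filtered with filterByExpr, scaled by TMM and tested with edgeR 4.0.16 (R 4.3.3) by robust quasi-likelihood F tests, two-sided, with Benjamini-Hochberg adjustment over all genes tested. Genotype was fitted in each tissue with litter as a fixed term, the labels giving each sample's litter. The neurons were compared with the cortex without a litter term, because litters are nested in tissue. limma 3.58.1, DESeq2 1.42.0, other scalings, no filter, no litter term and leaving out each library were alternatives. The fits were tested on simulated data, with planted differences larger than any genotype difference of the members and only in genes with many reads. How well they recover smaller differences or genes with few reads was not examined.

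The members and gene lists were chosen with earlier results of these data known. Values in every library are given for *Pgap1*, for members with an unadjusted p below 0.05 in a genotype fit, for the highest member per exon length of each step, and for the 4 members with the largest tissue differences in each direction among those called in both tissue comparisons. Of the other lists, genes with an FDR below 0.05 in a genotype fit are named, or else the gene with the smallest p. P-values of the genotype fits measure the spread between foetuses within these litters. Those of the tissue fits, which have no litter term, measure the spread between libraries, which includes that between litters.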

Additional observations from a re-analysis of the deposited data

Results flagged for a closer look

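In deleted neurons, 5 of the 30 genes had 1 library far from the other 3. *Pign* was at 32.4 CPM in replicate 2 and between 25.5 and 25.9 CPM in the others. *Pgap2* was at 14.4 CPM in replicate 4, where the others lay between 11.6 and 12.1 CPM, and *Pigl* was at 2.99 CPM in replicate 3, where they lay between 3.53 and 3.65 CPM. Replicate 1, the culture of litter 7 that has no control, was low for *Gpld1*, at 28.5 CPM beside 34 to 34.6 CPM, and for *Pigh*, at 7.59 CPM beside 9.61 to 9.87 CPM. The 60 combinations of a gene with a group of 4 or 5 libraries were examined, of which chance alone flags about 1 in 20, and no deleted cortex was flagged.

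*Dpm3* had values of opposite sign in the tissues, neither of which passed its own test. Against the control of its own litter, each of 5 deleted cortices was lower (log2 difference -0.82 to -0.19) and each of 3 deleted neuron cultures was higher (0.11 to 0.79). All 30 genes were examined for such a pattern and 1 was flagged. By litter means, 16.3% of all genes were lower in every cortex litter and 16.0% higher in every neuron litter with both genotypes. The share of all genes with both was not counted, so the flag does not set *Dpm3* apart. The interaction of 0.833 had a Benjamini-Hochberg FDR of 0.81 by edgeR's test.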

How the results depend on the processing

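The counts of 0 among the other 29 genes at an FDR below 0.05 held in both tissues and in the interaction under every alternative run, and the fit with no replicate block, which leaves out the litter term, also gave 0. In that fit the log2 fold change of *Pgap1* was 0.42 (cortex) and 0.32 (neurons). The median of the 29 in the cortex ranged from 0.003 (without deleted replicate 2) to 0.072 (without deleted replicate 3) with each library left out. That in the neurons ranged from -0.037 to 0.055, being 0.054 without control replicate 1 and 0.055 without deleted replicate 2. Estimates near 0 changed sign on leaving out a library, so that they ranged from -0.039 to 0.001 for *Piga* in the cortex and, in the neurons, from -0.108 to 0.063 for *Pigv*, from -0.041 to 0.026 for *Pign* and from -0.054 to 0.291 for *Pigg*. The members higher in control neurons than in control cortex, 6 in all, numbered 2 to 5 with each library left out. They numbered 2 without control cortex replicate 1, and 3 without control cortex replicate 2 or control neuron replicate 1. With library totals they numbered 1, and 3 were higher and 14 lower in deleted samples, a scaling by which the median of all genes shifted as well. Depth limits *Mppe1*, *Pigz*, *Pigl* and *Dpm3*, whose lowest libraries held 23, 31, 47 and 81 reads. *Pgap1* lost its control tissue call without control cortex replicate 1 or control neuron replicate 1. *Pigx* lost it without control cortex replicate 2 or control neuron replicate 1. *Pigw*, *Pigf*, *Pigl* and *Pigo* lost theirs without control cortex replicate 1 or 2 and without control neuron replicate 3, as well as without replicate 1 (*Pigw*) or 2 (the other 3 genes) of the control neurons. In deleted samples *Pgap1* lost its tissue call without any of cortex replicates 1 to 4 or neuron replicates 2 and 4, and *Pgap3* kept its own in 2 of 9 fits. *Dpm1* kept its control call in 3 of 6.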
